A study of Mus musculus with 10 samples.

Results

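The genes Itgam, Itgax and Itgad lie side by side on mouse chromosome 7 and encode alpha chains of the beta 2 integrins, and their chromatin loops were examined here in bone marrow-derived macrophages (BMDMs) given the cytokines IL-4, IFNG or both in turn. A loop belonged to the locus when 1 of its 10 kb anchor bins overlapped the 100 kb on either side of the transcription start site (TSS) of at least 1 of these 3 genes. This rule took 296 of the 301424 lines in 5 loop lists, which were 142 of 153264 different bin pairs. Itgam (ENSMUSG00000030786.18) spans chr7:128062640-128118491 in GRCm38 (GENCODE M21), Itgax (ENSMUSG00000030789.9) spans chr7:128129547-128150657 and Itgad (ENSMUSG00000070369.13) spans chr7:128154376-128223816, all on the plus strand. The protein-coding gene Gm49368 (chr7:128062683-128128160) starts in the same bin as Itgam, overlaps it and reaches the bin of the Itgax start site. Bins of 10 kb do not separate Gm49368 from Itgam. Loops at bins named for Itgam here are therefore not assigned to Itgam alone.

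The cells came from wild-type female C57BL/6 mice of 2 to 3 months, and all 5 groups were grown in M-CSF at 20 ng/ml and treated on day 6. Untreated cells are labelled M0[CTR]. Cells kept for 24 h in IL-4 at 20 ng/ml (M2[IL-4]) are called IL-4 cells here, and those then washed 3 times and left for another 24 h (M2p[pIL-4]) are called rested cells. IFNG cells were unprimed and had 20 ng/ml of the cytokine during 3 h, and primed IFNG cells (pIL-4 + IFNG) had the same dose and time after IL-4, washing and rest. Each group had 2 replicates, but each is represented by 1 list that pools them, so replicate spread is unknown and no difference was tested. The 5 lists held 53424 to 67728 loops with a median of 32 contacts each, and they summed to between 2174945 and 2787117 contacts, which is the called portion of a library and not its depth. No RNA was read here, so the macrophage label was not checked against marker transcripts.

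Integrins are adhesion receptors made of an alpha and a beta chain, and the beta 2 family is found on leukocytes, where each alpha chain pairs with the common beta 2 chain CD18 (Itgb2). Itgam encodes CD11b, which with CD18 forms complement receptor 3 and is a standard surface marker of macrophages and other myeloid cells. Itgax encodes CD11c, a marker of dendritic cells and of some tissue macrophages, and Itgad encodes CD11d, an alpha chain found on macrophage subsets. A loop in Hi-C is a pair of bins whose ends were ligated to each other more often than their surroundings, and such loops can join promoters, distal regulatory elements or sites held by CTCF and cohesin. IL-4 signals through STAT6, while PU.1 is the lineage factor of myeloid cells.

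The promoters of 2 of the 3 genes matched an entry of the RefSeq promoter table (GRCm38.p6) and are shown because the start sites define the locus. Each is the 250 bases before the RefSeq start site, with capitals on matches to the motifs searched on both strands, and they lie at chr7:128062390-128062639 for Itgam and chr7:128129300-128129549 for Itgax. Itgad had no entry.
Itgam: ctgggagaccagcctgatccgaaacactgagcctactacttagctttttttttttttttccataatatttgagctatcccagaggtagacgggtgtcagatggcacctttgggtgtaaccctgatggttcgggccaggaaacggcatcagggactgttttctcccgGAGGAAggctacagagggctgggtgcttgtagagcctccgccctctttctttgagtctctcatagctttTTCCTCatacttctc
Itgax: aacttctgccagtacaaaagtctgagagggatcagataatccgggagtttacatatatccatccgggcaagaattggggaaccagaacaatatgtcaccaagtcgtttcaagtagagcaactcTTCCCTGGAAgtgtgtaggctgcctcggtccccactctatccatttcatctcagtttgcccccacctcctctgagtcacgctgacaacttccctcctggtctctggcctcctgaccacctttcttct
The Itgam promoter held the PU.1 core GAGGAA at -84 on the plus strand and at -15 on the minus strand, counted from the start site at the first base of each match. The core was in 23.4% of the 32536 promoters of this length. The longer form GAGGAAGT, which contains the core, was in 2.45% of promoters and in neither of these. The Itgax promoter held TTCCCTGGAA at -127, which has the TTCNNNNGAA spacing known for STAT6 and was matched in 5.89% of promoters. The CTCF consensus with at most 1 mismatch (2.02% of promoters) was matched in neither window.

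CTCF matches in the anchor bins are shown because CTCF sites often stand at loop ends. The 30 bins of the locus held 9 matches with at most 1 mismatch in 8 bins, and 25.5% of the 14164 bins of chromosome 7 held at least 1. The 3 printed here lie upstream of Itgam, in the bin of its start site and in its intron, each with the 14 matched bases in capitals and in the direction of the match (GRCm38).
chr7:128023134-128023163, between Trim72 and Itgam: cctactccCCAGTAGATGGCGCtgttttgg
chr7:128061411-128061440, before the Itgam start site: aacaaggtCCACGAGGTGGCAGgtaaaggt
chr7:128095428-128095457, intron of Itgam: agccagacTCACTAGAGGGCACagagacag
The first is an exact match and the others have 1 mismatch. Of these 3, those upstream of the gene are on the plus strand and the intronic one is on the minus strand. Matches not printed include another between Trim72 and Itgam, at chr7:128043221-128043234 on the plus strand. A second match in the Itgam intron, at chr7:128098304-128098317, is on the plus strand too. The 3 printed thus do not give the directions of all 9. A match is a stretch of letters and no measurement of binding. The bins with most anchors, those of Cox6a2, Pycard and Trim72 described below, held no match.

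The question for the locus was whether loop number near the 3 genes differed after IL-4, after its removal and after IFNG. In IL-4 cells 74 loops had an anchor near at least 1 of the genes, against 50 in untreated cells, 68 in rested cells, 50 in IFNG cells and 54 in primed IFNG cells. The highest numbers were in IL-4 cells and rested cells, and primed IFNG cells lay close to the lists without IL-4. Since the lists differ in length, numbers were also set per 10000 loops of the list, which gave 9.36 in untreated cells, 12.7 in IL-4 cells, 10.0 in rested cells, 9.09 in IFNG cells and 8.06 in primed IFNG cells. After this scaling IL-4 cells were highest, and rested cells were near untreated cells.

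**Figure D1:**
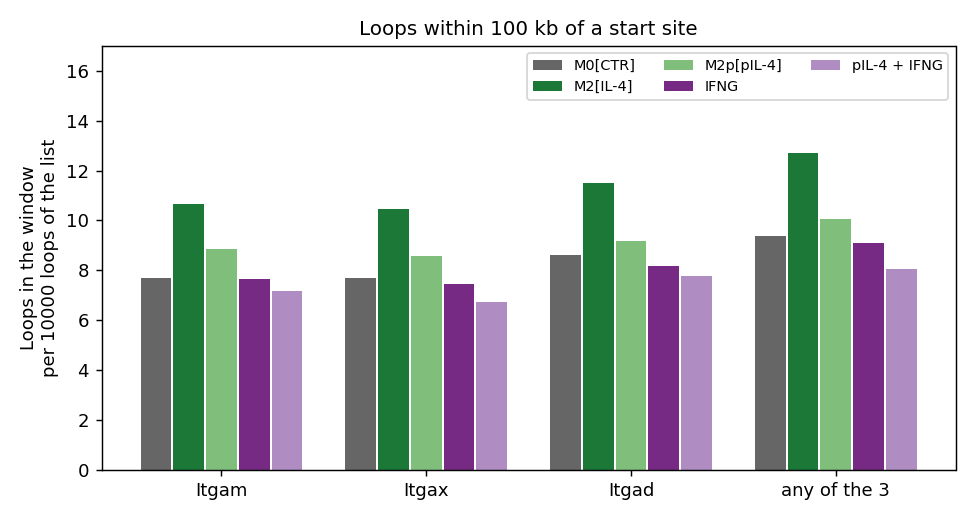
Loops within 100 kb of each start site, per 10000 loops of the list, for the 3 genes and for the locus as a whole, with 1 bar per list and no error bars because each list pools its replicates. IL-4 cells have the highest bar in all 4 windows, at 12.7 for the locus as a whole.

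For Itgam the lists held 41 loops in untreated cells, 62 in IL-4 cells, 60 in rested cells, 42 in IFNG cells and 48 in primed IFNG cells. For Itgax the numbers were 41, 61, 58, 41 and 45 in the same order. For Itgad they were 46, 67, 62, 45 and 52. The number was highest in IL-4 cells and next in rested cells at all 3 genes, an order that the rule largely makes common to them, since 100 of the 142 bin pairs lay in all 3 windows, 18 in 2 and 24 in 1. Scaled by list length, IL-4 over untreated cells was 1.39 for Itgam, 1.36 for Itgax and 1.34 for Itgad, and 1.36 for the locus (95% interval 0.935 to 1.98 if loops were independent, counting error only). This interval includes a ratio of 1, and touching bin pairs are not independent, so the true interval is wider.

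Many other genes shifted as far or further. Over the 14591 protein-coding genes with at least 10 loops over the 5 lists, the median ratio of IL-4 over untreated cells was 0.982, and the ratio of Itgam was above 83.4% of genes, that of Itgax above 80.8% and that of Itgad above 80.02%. None of the 3 genes was past 1.5-fold in IL-4 against untreated cells, where 14% of genes were past it upwards and 12.2% downwards. Itgax was past it within a window of 50 kb (43 loops against 22, a ratio of 1.79), as were 15.9% of genes in that setting. Itgam and Itgax were past it when touching bin pairs were merged (1.74 and 1.53, with 17% of genes). Itgam was also just past it without scaling, at 1.51, and when scaled by contacts, at 1.52, with 19.1% of genes in both settings. All 3 were past it among loops with at least the median count of their span, at 1.76 for Itgam, 1.69 for Itgax and 1.60 for Itgad, from 13 to 16 loops in untreated cells, and there 16% of genes were past it. The loops of this locus were numerous in every list, with each gene above 86.5% to 96.6% of all protein-coding genes, whose medians were 6 to 8 loops.

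**Figure D2:**
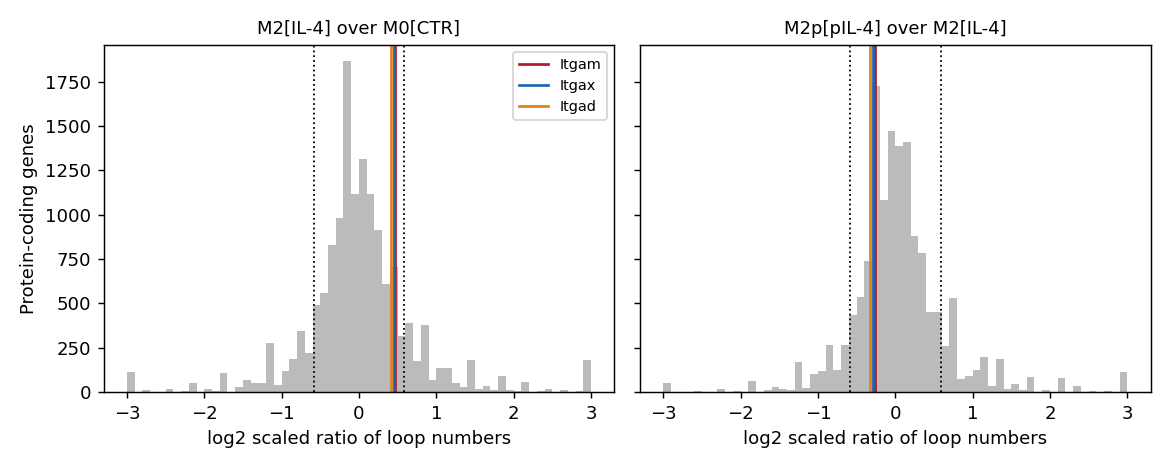
Histogram of the log2 scaled ratio of loop numbers over protein-coding genes for IL-4 over untreated cells and rested over IL-4 cells, with values beyond the range placed in the end bars, the 3 integrin genes as coloured lines and 1.5-fold as dotted lines. The genes lie right of centre in the first distribution (ratios of 1.34 to 1.39) and left of centre in the second (0.796 to 0.832).

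After washing and rest the scaled numbers lay below those of IL-4 cells. The ratio of rested over IL-4 cells was 0.832 for Itgam, 0.818 for Itgax and 0.796 for Itgad, and 0.790 for the locus (0.560 to 1.11). None of the 3 genes was past 1.5-fold, with 13.8% of genes past it upwards and 9.29% downwards. The ratio of rested over untreated cells was 1.07 for the locus (0.734 to 1.58) and 1.15 for Itgam, 1.12 for Itgax and 1.06 for Itgad, again with none of the 3 past 1.5-fold (14.5% of genes higher and 8.12% lower). Neither interval sets rested cells apart from untreated cells or from IL-4 cells.

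IFNG without priming left the loop number of the locus at 50, as in untreated cells, a scaled ratio of 0.971 (0.643 to 1.47). For Itgam, Itgax and Itgad this ratio was 0.995, 0.971 and 0.950, and none of the 3 was past 1.5-fold (15.2% of genes higher and 12.5% lower). After priming, primed IFNG over rested cells was 0.803 for the locus (0.551 to 1.16), from 54 loops against 68, and none of the genes was past 1.5-fold (12.9% of genes higher and 9.66% lower). Within a 50 kb window Itgad was past it downwards in both, at 0.622 for IFNG over untreated cells (16 loops against 25, with 15.7% of genes) and 0.664 for primed IFNG over rested cells (23 against 35, with 11.3% of genes). Both intervals for the locus include 1.

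The loops fell into a few sets by position. Loops with both anchors inside the block of the 3 genes numbered 16 in untreated cells, 27 in IL-4 cells, 22 in rested cells, 16 in IFNG cells and 15 in primed IFNG cells. Those of more than 50 kb numbered 15, 16, 18, 15 and 11 in the same order. Those of 50 kb or less numbered 1 in untreated cells, 11 in IL-4 cells, 4 in rested cells, 1 in IFNG cells and 4 in primed IFNG cells. The limit of 50 kb was chosen after these values were seen, so the contrast is a description. Among 1082 blocks of 170 kb laid end to end over the genome with at least 10 loops of this kind over the lists, 25% had at least 1.5-fold more in IL-4 cells than in untreated cells after scaling by list length, blocks with none in untreated cells included. The scaled ratio of the integrin block, 10.1 from a single loop in untreated cells, was reached or passed in 37 of these blocks (3.42%), and its unscaled difference of 10 loops in 3 of them.

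**Figure D3:**
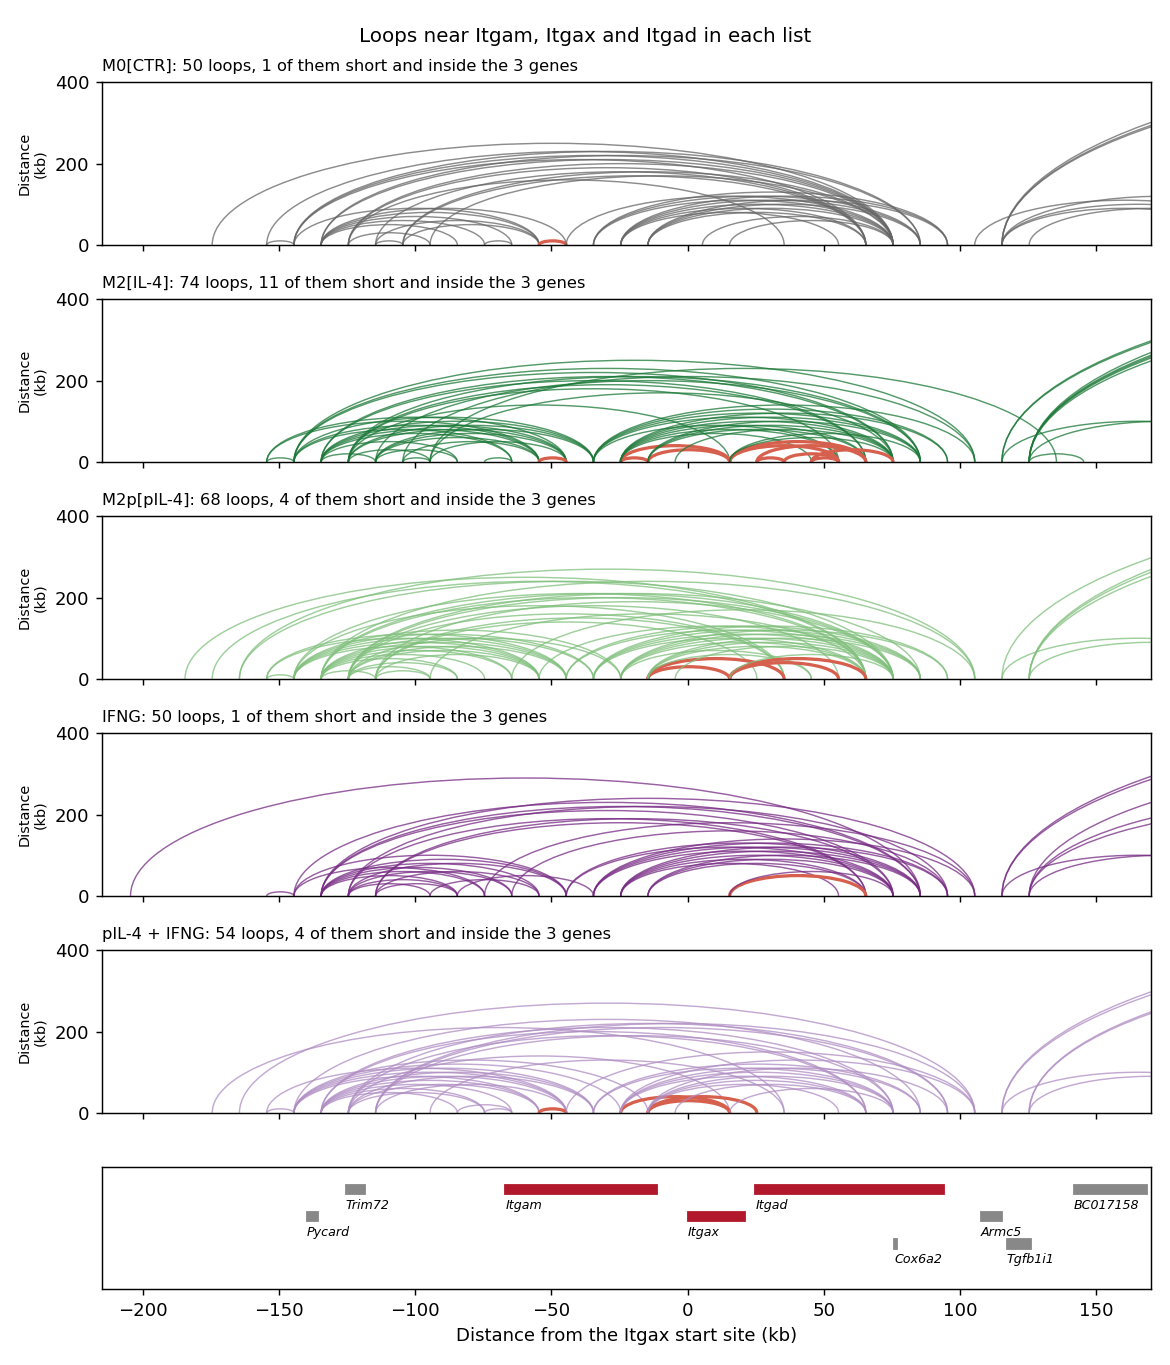
Each arc is a loop joining the centres of 2 bins, placed by distance from the Itgax start site, with its height giving the distance between the bins in kb, with 1 list in each row and the genes at the foot. Red arcs are loops of 50 kb or less inside the 3 genes, which number 1, 11, 4, 1 and 4 from top to bottom, and arcs running off the right edge end up to 470 kb from their start.

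The short loops named by bin show where these calls lay. The only one in untreated cells joined neighbouring bins in the body of Itgam, chr7:128070001-128080000 and chr7:128080001-128090000, with 149 contacts there, 144 in IL-4 cells and 136 in primed IFNG cells. The pair from the last part of Itgam (chr7:128110001-128120000) to the last part of Itgax (chr7:128140001-128150000), 30 kb apart, had 85 contacts in IL-4 cells (67.9 to 105 by an exact Poisson interval), 92 in rested cells and 95 in primed IFNG cells. It was called in neither untreated cells nor IFNG cells. A pair that was not called has no count in the lists, so its contacts there are unknown and not 0. For scale, the lowest count called at 30 kb in the genome was 35 in untreated cells and 30 in IFNG cells. Calls may depend on local background, so these lowest counts set no upper limit for a pair that was not called.

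The same Itgax bin also paired with the body of Itgad. Its pair with chr7:128180001-128190000 had 69 contacts in IL-4 cells and 65 in rested cells, and was not called in the other lists. Its pair with chr7:128190001-128200000 had 61 in IL-4 cells, 64 in rested cells and 78 in IFNG cells. Inside Itgad, IL-4 cells alone held 5 short loops. Of these, 2 started in the bin of the Itgad start site, with 96 and 48 contacts, and the others had 72, 113 and 54 contacts. All 5 lay below the median count of their span in that list, at 0.696 to 0.819 times it.

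Over different bin pairs, loops between upstream bins and the integrin genes were the most frequent set, at 58 against 39 inside the block. They numbered 21 in untreated cells, 27 in IL-4 cells, 30 in rested cells, 17 in IFNG cells and 25 in primed IFNG cells. In IL-4 cells loops inside the block were as many, at 27, and in IFNG cells nearly as many, at 16. The genes of the upstream bins included Pycard, the inflammasome adaptor ASC, and Trim72, a membrane repair protein. The strongest loop found in all lists joined the bin of the Pycard start site (chr7:127990001-128000000) to the bin of the Itgam start site (chr7:128060001-128070000), 70 kb apart. It had 66 contacts in untreated cells (51.0 to 84.0), 73 in IL-4 cells, 64 in rested cells, 75 in IFNG cells and 77 in primed IFNG cells, and on average 1.46 times the median count of its span. The counting intervals of the 5 lists all overlapped. The Pycard bin also reached the neighbouring bin before Itgam (chr7:128050001-128060000), with 69, 79, 73 and 76 contacts in untreated cells, rested cells, IFNG cells and primed IFNG cells, and this pair was not called in IL-4 cells.

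The body of Itgam was joined to the second part of Itgad in every list. The bin at chr7:128110001-128120000 and the Itgad bin at chr7:128190001-128200000, 80 kb apart, had 55 contacts in untreated cells, 49 in IL-4 cells, 64 in rested cells, 69 in IFNG cells and 48 in primed IFNG cells. The bin at chr7:128100001-128110000 and the bin at chr7:128200001-128210000, which holds Itgad and within it Cox6a2, a muscle form of a cytochrome c oxidase subunit, had 58, 72, 48, 53 and 44. From the Itgax bin at chr7:128140001-128150000 to the same Cox6a2 bin the counts were 52, 60, 59, 55 and 50. Other pairs between these parts followed other orders, as from chr7:128090001-128100000 to the Cox6a2 bin with 40, 39, 39, 42 and 53 contacts. No order of lists was common to the pairs.

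Few loops reached past the block downstream. No more than 2 in any list joined the integrin genes to a downstream bin, and no more than 3 spanned the whole block. Loops among upstream bins numbered 4 to 7 and those among downstream bins 6 to 10 per list. The downstream loops fanned from the bins of Armc5 and Tgfb1i1, the focal adhesion protein Hic-5, to bins as far as Inpp5f and Mcmbp, with the last anchor ending at 128720000. Those of 340 to 470 kb had 13 to 22 contacts, as in the pair from Tgfb1i1 to chr7:128680001-128690000, 430 kb apart, with 16 contacts in both IL-4 cells and rested cells and no call elsewhere. The shorter pair from the bin of Armc5 and Tgfb1i1 to chr7:128340001-128350000, 100 kb apart, was called in all lists with 36, 49, 46, 40 and 46 contacts.

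Anchors were unevenly spread over the 30 bins of the locus. The Cox6a2 bin held the most, 46 over the 5 lists, with 13 in untreated cells, 9 in IL-4 cells, 11 in rested cells, 7 in IFNG cells and 6 in primed IFNG cells. The Pycard start bin came next with 41, and its numbers were 7, 8, 10, 8 and 8. The bin of the Itgax start site held only 3 and the next bin, inside Itgax, only 1. The bin of the Itgad start site held 4. More anchors in IL-4 cells than in the other lists were seen at the Itgax bin at chr7:128140001-128150000, with 1, 7, 4, 2 and 4 loops, and at an Itgam bin (chr7:128090001-128100000), with 3, 9, 6, 5 and 5. The same was seen at other bins, also outside the integrin genes. Examples are an Itgad bin (chr7:128180001-128190000), with 1, 6, 2, 1 and 1, and a Tgfb1i1 bin (chr7:128250001-128260000), with 1, 7, 4, 4 and 3. The bin of Armc5 and Tgfb1i1 beside it had most in untreated cells, with 6, 3, 2, 3 and 3.

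**Figure D4:**
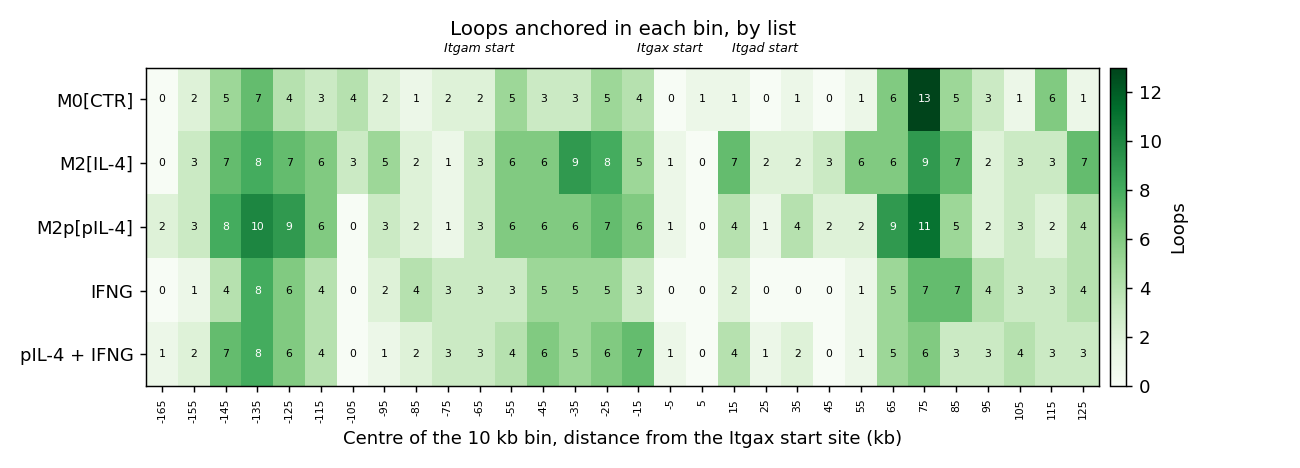
Number of loops with an anchor in each 10 kb bin of the locus, by list, with bins placed by the distance of their centre from the Itgax start site in kb and darker green for more loops. The bin centred 75 kb after the start site, which holds Cox6a2, reaches 13 in untreated cells. The bin of the Itgax start site and the next bin, inside Itgax, hold 0 or 1 in every list. The bin before them holds 4, 5, 6, 3 and 7 from top to bottom.

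Base composition and repeats of these bins were compared with chromosome 7, since both affect how many reads can be mapped. The bins held 21 to 38 GATC sites, the sequence cut by the MboI enzyme used for these libraries, with a median of 25 in the locus and on the chromosome. Their GC content was 39.4% to 54.9% with a median of 46.0%, against 42.6% on the chromosome. The share of 50-base stretches found more than once on chromosome 7 had a median of 3.95% against 2.49%. It was highest in the bin of the Itgax start site, at 26.3%, and this bin had few loops. The Itgam bin at chr7:128090001-128100000 had 24.5% and 28 loops over the lists. The part of repeats in these numbers was not tested.

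Few loops were anchored at the start sites themselves. The bin of the Itgam start site held 2 loops in untreated cells and 3 in each other list, from 7 different pairs. The bin of the Itgax start site held none in untreated cells or IFNG cells and 1 in each of the lists with IL-4. In IL-4 cells and rested cells its partner was the Cox6a2 bin, with 30 and 26 contacts, and in primed IFNG cells it was the Itgad bin before it, with 38. The bin of the Itgad start site held 0 in untreated cells, 2 in IL-4 cells, 1 in rested cells, 0 in IFNG cells and 1 in primed IFNG cells. Among 21728 protein-coding genes, 34.8% to 39.7% had a loop at the start bin, depending on the list. No bin pair joined the start bins of 2 of the 3 genes.

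With both neighbouring bins included, the start of Itgad held more loops in the lists with IL-4 than in the others. These numbers were not scaled by list length, and the share of all genes with such a split was not computed. It had 10 loops in IL-4 cells, 9 in rested cells and 7 in primed IFNG cells, against 2 in untreated cells and 2 in IFNG cells. These 3 bins include the Itgax bin at chr7:128140001-128150000, which was an anchor of 7 of the loops in IL-4 cells, 4 in rested cells and 4 in primed IFNG cells. For Itgax the numbers were 5 in untreated cells, 6 in IL-4 cells, 7 in rested cells, 3 in IFNG cells and 8 in primed IFNG cells, and for Itgam they were 8, 9, 10, 9 and 9. The lists with IL-4 were thus above the others at Itgax as well, but not all of them were at Itgam.

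Contacts were compared where all lists gave a count. At the 15 bin pairs called in all 5 lists, the contacts summed to 742 in untreated cells (690 to 797), 778 in IL-4 cells, 814 in rested cells, 772 in IFNG cells and 799 in primed IFNG cells. Scaled by the contacts at the 14063 bin pairs that all lists share, the ratio was 1.05 (0.949 to 1.16) for IL-4 over untreated cells, 1.06 (0.958 to 1.17) for rested over untreated cells and 1.01 (0.913 to 1.11) for rested over IL-4 cells. It was 1.01 (0.913 to 1.12) for IFNG over untreated cells and 0.994 (0.901 to 1.10) for primed IFNG over rested cells. All 5 intervals include 1, and the widest of them runs from 0.949 to 1.16. Pairs lost from a list have no count there, so this comparison holds only for pairs called throughout.

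**Figure D5:**
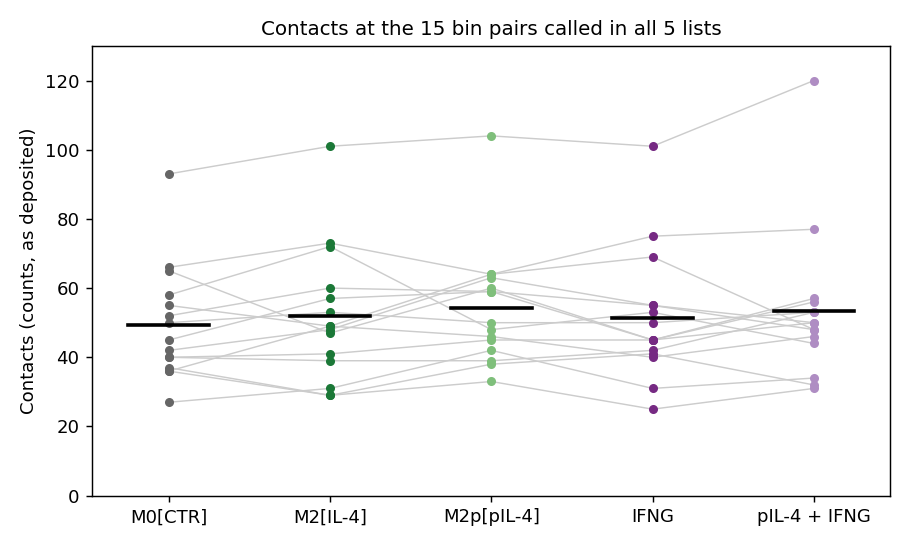
Deposited contact counts at the 15 bin pairs of the locus called in all 5 lists, 1 point per pair and list, with grey lines joining a pair and black bars giving the mean over pairs. The points overlap widely between lists, and their sums lie between 742 and 814.

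The pairs called in both of 2 lists gave the same picture with more pairs. Over 30 pairs IL-4 over untreated cells was 1.02 (0.949 to 1.10), and over 39 pairs rested over IL-4 cells was 0.972 (0.909 to 1.04). In single pairs the ratio of IL-4 over untreated cells ran from 0.691 to 1.44, and no pair had a counting interval off 1. Among the 5 comparisons, 2 had 1 such pair each, rested over IL-4 cells and IFNG over untreated cells.

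Which pairs were called varied between the lists. Of the 142 bin pairs, 67 were in 1 list, 35 in 2, 16 in 3, 9 in 4 and 15 in all 5 (10.6%, Wilson interval 6.51% to 16.7%). Over all loops 9.18% of bin pairs were in all 5 lists, and 11.1% after weighting to the spans of the locus. The 3 lists with IL-4 alone shared 6 pairs (4.23%, 1.95% to 8.91%), against 1.45% of all pairs and 1.68% at the same spans. IL-4 cells and rested cells alone shared 10 pairs (7.04%, 3.87% to 12.5%), against 2.16% and 2.36%. Pairs of both IFNG lists alone numbered 1 (0.704%, against 2.11% and 2.19%), and those of untreated cells and IFNG cells alone 2 (1.41%, against 1.21% and 1.11%). Rested cells and primed IFNG cells alone shared 3 pairs (2.11%, against 2.72% and 3.01%). The Wilson intervals here and below take bin pairs as independent. Pairs that touch or share an anchor are not, so the true intervals are wider.

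The 6 pairs of the lists with IL-4 alone started mostly upstream. Of these, 4 joined upstream bins to Itgam or Itgad, as in the Pycard start bin with the Itgam bin at chr7:128090001-128100000, with 41 contacts in IL-4 cells, 33 in rested cells and 35 in primed IFNG cells. Another was the Itgam to Itgax pair described above, and the last ran from Armc5 and Tgfb1i1 to Mcmbp, 460 kb away, with 20, 18 and 16 contacts. The strongest pair of untreated cells and IFNG cells alone joined Trim72 to Itgad over 180 kb, with 29 and 40 contacts. The pair of both IFNG lists alone joined Trim72 to the end of Itgad over 220 kb, with 27 and 23. The strongest pair of rested cells and primed IFNG cells alone joined the Trim72 start bin to Itgam over 70 kb with 45 and 48 contacts.

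Many of these pairs had a near neighbour in the other list. With a match within 25 kb at both anchors, 9 of the 74 loops of IL-4 cells had none in untreated cells (12.2%, 6.53% to 21.5%), against 13.6% of its whole list. Of the 68 loops of rested cells, 2 had none in untreated cells (2.94%, 0.810% to 10.1%), against 14.1%, and 3 had none in IL-4 cells (4.41%, against 12.9%). Of the 50 loops of IFNG cells, 4 had none in untreated cells (8%, against 13.0% of the list), and of the 54 of primed IFNG cells, 4 had none in rested cells (7.41%, against 11.4%). In untreated cells, 1 of 50 loops had none in IL-4 cells (2%, against 10.8%). The locus held more loops than most genes, and the shares of whole lists were not matched for loop density. The part of density in the lower shares was not tested, so they cannot be read as a more stable locus.

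The other genes of the beta 2 integrin pathway were read by the same rule, as a list of 42 genes, of which 38 had at least 10 loops over the lists. Itgal, the alpha chain CD11a of LFA-1, starts 833 kb before Itgax on the same chromosome and had 44 loops in untreated cells, 38 in IL-4 cells, 63 in rested cells, 57 in IFNG cells and 61 in primed IFNG cells. Its scaled ratio of IL-4 over untreated cells was 0.792, below 1 where those of its 3 relatives were above. Itgb2, the common beta chain, had 12, 17, 17, 11 and 17 loops. Its ratio of IL-4 over untreated cells was 1.30.

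In IL-4 over untreated cells, 1 of the 38 genes was past 1.5-fold upwards, Rapgef3 (the Rap1 activator EPAC1) at 1.58, and 1 downwards, Rap1b, a small GTPase of integrin activation, at 0.479 from 23 loops against 44. The median of the list was 0.968, against 0.982 over all genes. In rested over untreated cells none was higher and 3 were lower, Rap1b at 0.663, Skap2, an adaptor of integrin signalling, at 0.526 and the transcription factor Sp1 at 0.660. In rested over IL-4 cells the beta-like chain Itgb2l (1.51) and Thy1, a ligand of Itgam (1.61), were higher and Skap2 (0.430) was lower. In IFNG over untreated cells, Itgb2l was higher at 1.75 and Rap1a (0.416), its effector Apbb1ip (0.530), Cyth1 (0.546) and Skap2 were lower, with Skap2 at 3 loops in untreated cells and 0 in IFNG cells. In primed IFNG over rested cells the only gene past 1.5-fold was Thy1 at 0.539, lower. These shares of 38 were below or near those of all genes given above, and several rest on fewer than 10 loops per list.

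Outside this locus, 3 genes had loop numbers most like those of Itgax over the 5 lists, by the distance between log2 numbers (scaled by list length, with 1 added and each gene's mean removed), among 5306 genes within 2-fold of its total and more than 1 Mb away. Lrp4 on chromosome 2 had 36, 56, 52, 37 and 40 loops (distance 0.0464), and 1110051M20Rik on the same chromosome had 36, 56, 51, 35 and 40 (0.0733). Dbil5 on chromosome 11 had 20, 30, 30, 21 and 23 (0.0772). Likeness over 5 values is a description, and it says nothing of common control.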

How the data were processed

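Hi-C loops of 10 samples in 5 groups of 2 replicates were read from 5 deposited lists, 1 per group. Each line gave 2 bins of 10 kb and the contacts between them, deposited as whole-number counts without visible normalization. The submitters' processing notes name FastQC, Bowtie2, HiC-Pro, Juicer, HOMER and mm10, and the authors' methods describe balanced maps and, at 25 kb, loops from HICCUPS. The lists have 10 kb bins and no false discovery rate, so their caller and threshold are not given in the sources used here. Calls may depend on depth and on local background, and a pair that was not called has no count.

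Loops were counted within 100 kb of start sites (GENCODE M21) and scaled by list length. Genes with at least 10 loops over the lists were compared, and 1.5-fold was used as a limit of size, with no test. Loop strength is a count over the median at that span in that list. Intervals are 95% exact Poisson, conditional binomial (Clopper-Pearson) or Wilson and cover counting error only. Named loops were those with the highest counts at 30 kb or more and the strongest of each call pattern, and named genes were the 3 members, genes in those bins, pathway genes past 1.5-fold and the 3 genes most like Itgax. Other loops named, the 50 kb limit for short loops, their background and the gene shares in other settings were chosen after the values were seen. Members and lists were chosen with earlier results of these data known. The scripts were tested on simulated data. Alternatives changed windows, scaling, merging, strength, matching and limits. Scripts ran in Python 3.11.15 with scipy 1.17.1, pandas 2.3.3 and numpy 2.4.6, and plots used matplotlib 3.10.9. Some genes and motifs are not reported here.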

Additional observations from a re-analysis of the deposited data

How the results depend on the processing

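No paired analysis was possible because only 1 pooled list stands for a group, so neither a replicate block nor leaving out a replicate was run. The scaled ratio of locus loops for IL-4 over untreated cells lay between 1.22 and 1.66 over 8 alternatives, and reached 1.66 with loops of at least the median count of their span. The ratio of rested over untreated cells lay between 0.940 and 1.36, rested over IL-4 cells between 0.741 and 0.919, IFNG over untreated cells between 0.921 and 1.04 and primed IFNG over rested cells between 0.767 and 0.979. The ratio of rested over untreated cells was below 1 with equal list lengths, at 0.940. It was highest without scaling, at 1.36, and was 1.31 when scaled by contacts at the pairs in all 5 lists. How near rested cells lay to untreated cells thus depended on the scaling. The share of locus bin pairs with a call in all 5 lists was 76.1% with matches within 25 kb and 95.8% within 50 kb, in place of 10.6%. Shares over all bin pairs with such matches were not computed, and the part of loop density was not tested. These higher shares therefore cannot be read as a more stable locus. Loops at the start bin over all lists went from 14 to 45 for Itgam, from 3 to 29 for Itgax and from 4 to 30 for Itgad with both neighbouring bins. The excess of short loops in IL-4 over untreated cells, 10 loops, was 6 at 30 kb or less, 5 with loops of at least the median count and 5 with touching pairs merged, all added after seeing the data. With a 2-fold limit 1879 genes were past it in IL-4 against untreated cells, 1402 in rested against untreated cells, 1508 in rested against IL-4 cells, 1914 in IFNG against untreated cells and 1277 in primed IFNG against rested cells, and with at least 20 loops 2196 in rested against untreated cells. At 1.5-fold the numbers were 3820, 3295, 3373, 4046 and 3298. Of 202 recomputed values, 177 stayed within the main interval and on the same side of 1.5-fold, or within 1.5 times a main count and 25 moved. No loop ratio of the members or the locus was past 1.5-fold in the main setting, so none could lose that call. Of 160 alternative values of the 20 loop ratios, 22 lay on the other side of 1, none of them for IL-4 over untreated cells or rested over IL-4 cells. The lists hold called loops only, so contacts below the calling threshold were not measurable.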
